A study of Mus musculus with 12 samples.

Results

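The enzymes of glycolysis, glycogen turnover, pyruvate dehydrogenase and the tricarboxylic acid (TCA) cycle were followed in mouse primary cardiac fibroblasts treated with MCB-613-10-1. The set holds 37 genes listed by symbol, a rule that uses no measured value, among 26240 genes listed at 4 h and 27020 at 24 h. All 37 symbols were found at both times. Aldoa was listed under 2 identifiers, and the one used here, ENSMUSG00000030695, held 16632 to 37189 counts per library against 1 to 14 for the other.

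The cells came from hearts of C57BL/6 mice and were kept in serum-containing medium, and no genetic change is given in the labels for any group. Ethanol vehicle was compared with 6 µM MCB-613-10-1 after 4 h and after 24 h, with 3 RNA-seq libraries in each of the 4 groups. By its title the study asked how steroid receptor coactivation bears on NRF2 signaling and resistance to oxidative stress, where NRF2 is the transcription factor that drives antioxidant and detoxification genes. The labels name no animal or culture for a replicate, so p-values measure only the spread between these libraries, which may be technical. Time and any other difference between the 4 h and 24 h libraries cannot be told apart.

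As background, glycolysis splits glucose into pyruvate in the cytosol, and lactate dehydrogenase converts pyruvate to lactate. The pyruvate dehydrogenase complex instead turns pyruvate into acetyl-CoA for the TCA cycle in mitochondria, and pyruvate dehydrogenase kinases (PDKs) switch that complex off by phosphorylating it. Glycogen, the storage polymer of glucose, is built by glycogen synthase and branching enzyme and broken down by phosphorylases. Hypoxia-inducible factors (HIFs) are known to raise many glycolytic genes and Pdk1 under low oxygen.

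Each library held 25016754 to 34877090 counts, of which the 37 genes took 0.629% to 0.671% in vehicle at 4 h, 0.692% to 0.726% in treated cells at 4 h, 0.792% to 0.835% in vehicle at 24 h and 0.784% to 0.810% in treated cells at 24 h. Hmox1, a known NRF2 target coding for heme oxygenase, served as a check of the labels. Its level was 1163 to 1444 CPM (counts scaled to library size) in vehicle and 6366 to 6948 CPM in treated cells at 4 h, and 518 to 535 CPM against 10504 to 11133 CPM at 24 h. Summed levels of 9 fibroblast markers were 13812 to 15682 CPM in vehicle and 6368 to 6544 CPM in treated libraries at 24 h. Over the same groups 8 macrophage and leukocyte markers summed to 347 to 409 and 157 to 179 CPM, 7 smooth muscle and pericyte markers to 61.1 to 79.2 and 19.0 to 20.7 CPM, 7 epicardial markers to 78.2 to 91.7 and 31.4 to 40.1 CPM, and 8 endothelial markers to 44.1 to 52.8 and 44.5 to 46.0 CPM. These sums hide markers that moved in opposite directions at 24 h. At an adjusted p under 0.05 by edgeR, 3 endothelial markers were called higher and 5 lower. Called likewise were 1 fibroblast marker higher and 7 lower, 2 macrophage and leukocyte markers higher and 6 lower, and 1 epicardial marker higher and 2 lower. Of 9 cardiomyocyte markers 8 stayed under 1 CPM in every group, and 4 Schwann cell markers together reached at most 2.37 CPM. The 9 cardiomyocyte markers summed to 16.7 to 19.6 CPM in vehicle and 6.21 to 9.20 CPM in treated libraries at 24 h. At 4 h the macrophage and leukocyte sum was 98.8 to 107 CPM in vehicle and 69.7 to 90.7 CPM in treated libraries. The part of these marker levels in the results was not tested. In bulk RNA, fewer cells of a type and less RNA per cell cannot be told apart.

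At 4 h the 37 genes moved little. Gpi1, Pkm and Gbe1 were called higher and Pdk4 lower in treated cells, and 32 of the 36 genes tested were not called. Calls are at an adjusted p under 0.05 by edgeR's quasi-likelihood test with Benjamini-Hochberg adjustment over all genes. Over all 15336 genes tested at 4 h, 7.16% were called, 3.45% higher and 3.71% lower. The median log2 fold change (treated minus vehicle) was 0.04 for the 36 genes and -0.01 for all genes. Aldoc was too low for a test at 4 h. These values are from fits that did not pair the libraries. With libraries paired by replicate number, 5 of the 37 genes were called higher and 1 lower at 4 h. Over all 15336 genes, 920 were then called higher and 1033 lower, in place of 529 and 569.

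By 24 h most of the 37 genes had changed, in both directions. Called higher were 12 genes (Gpi1, Pfkm, Pfkp, Aldoa, Pgk1, Eno2, Pkm, Pfkfb2, Pfkfb4, Pdhb, Dlat and Gbe1). Called lower were 18 genes (Hk1, Pfkl, Aldoc, Tpi1, Eno1, Ldha, Ldhb, Pfkfb3, Pdk1, Pdk2, Pdk3, Pdha1, Gys1, Pygl, Pygb, Idh2, Ogdh and Mdh2). Not called were 7 genes (Hk2, Gapdh, Pgam1, Pdk4, Ugp2, Cs and Mdh1). Over all 15575 genes tested at 24 h, 74.7% were called, 36.7% higher and 38.0% lower, so the share of these genes called is close to that of the transcriptome. The median log2 fold change was -0.17 for the 37 genes and -0.02 for all genes.

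The split at 24 h depends on the scaling between libraries. With library totals in place of TMM, the scaling step of edgeR, the median log2 fold change of all genes at 24 h was -0.21 in place of -0.02, and 9 of the 37 genes were called higher and 22 lower. Among all called genes, the higher ones then made up 39.0% instead of 49.1% at 24 h, and 34.5% instead of 48.2% at 4 h. Pfkm, Pfkfb2 and Dlat lost their calls as higher under that scaling, and Pgam1, Mdh1, Ugp2 and Cs were called lower.

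**Figure D1:**
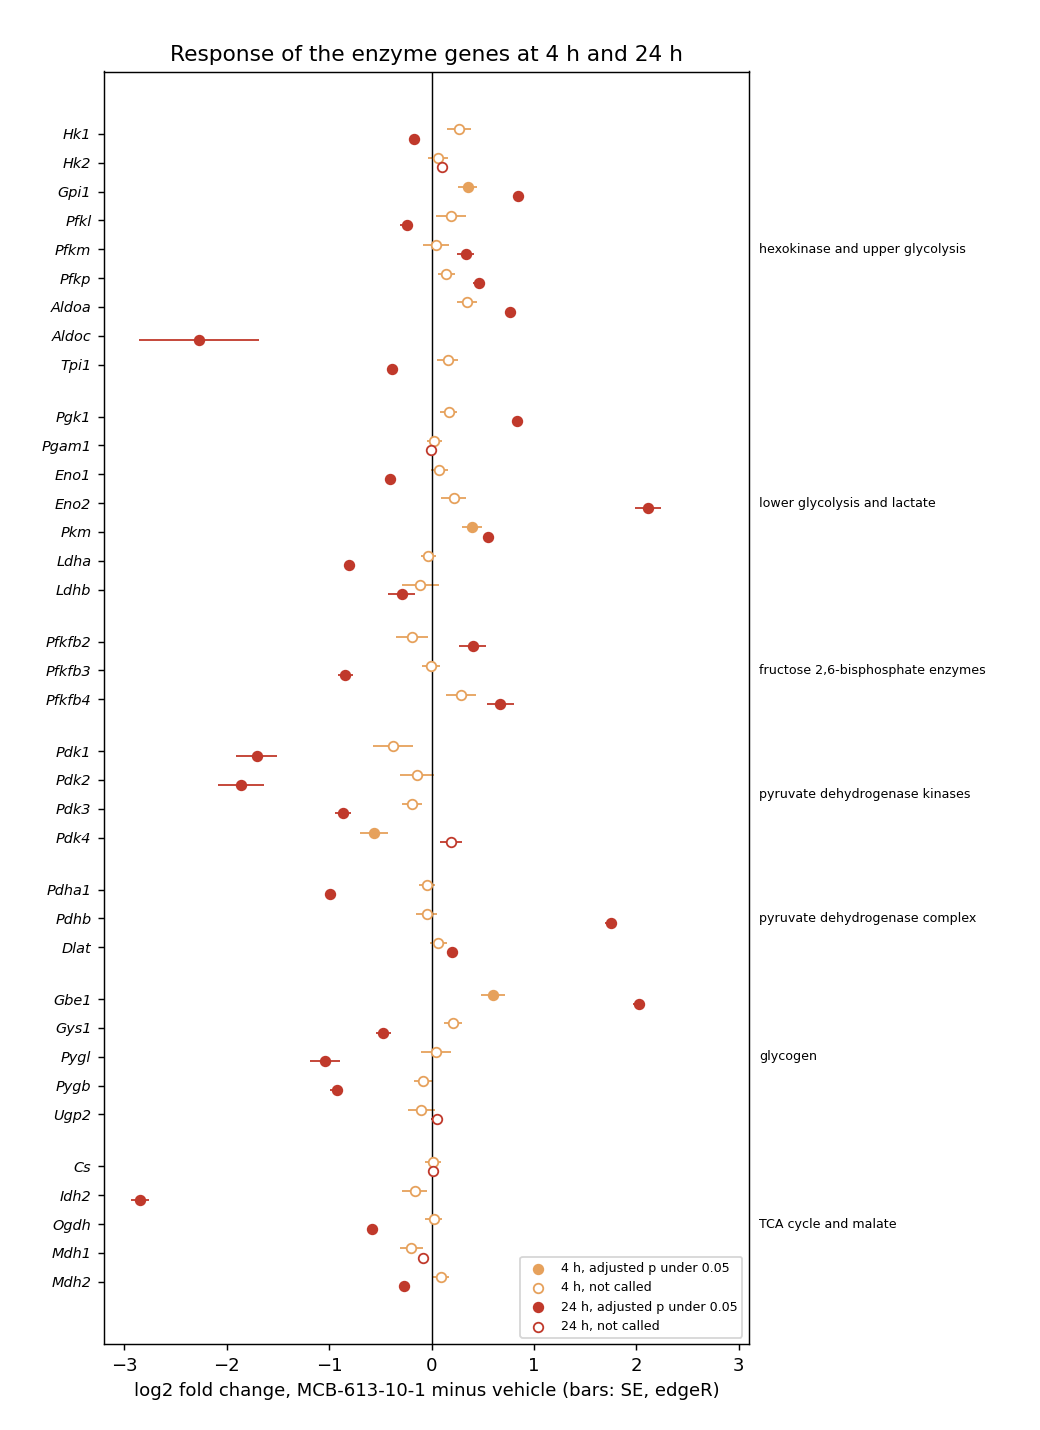
Log2 fold change (treated minus vehicle, x axis; bars are the SE) at 4 h and 24 h for the genes of the set, ordered by role, with called values filled. Gapdh is left out because of its spread between libraries, and Aldoc has no value at 4 h. The 4 h values lie between -0.56 for Pdk4 and 0.60 for Gbe1, while at 24 h they reach from -2.85 for Idh2 to 2.11 for Eno2.

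In the first steps of glycolysis, 4 of 9 genes were called higher at 24 h and 4 lower. Beside this count and those of the other roles below stand 74.7% of all genes called at 24 h, 36.7% higher and 38.0% lower. Gpi1, the phosphoglucose isomerase (ENSMUSG00000036427, chr7:33900755-33929761 on the minus strand of GRCm39), was called higher at both times. Its level was 299.5, 356 and 347 CPM in the vehicle libraries and 398, 454 and 429 CPM in the treated libraries at 4 h, and 368, 379 and 363 against 659, 652 and 689 CPM at 24 h. At both times every treated library lay above every vehicle library. The log2 fold change was 0.35 (SE 0.09, adjusted p = 0.0406 by edgeR, n = 3 per group) at 4 h and 0.84 (SE 0.04, adjusted p = 1.42e-12 by edgeR) at 24 h. The 4 h call of Gpi1 ended when any library but vehicle replicate 1 was left out, with adjusted p of 0.0509 to 0.18, and under library totals (adjusted p = 0.0648).

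Aldoa, the main aldolase, was called higher at 24 h with a log2 fold change of 0.77 (SE 0.05). With the libraries paired by replicate number Aldoa was also called at 4 h, at 0.34 unpaired and 0.35 paired (adjusted p = 0.0123 by edgeR), as was Hk1, a hexokinase that traps glucose in the cell (0.28 paired, adjusted p = 0.0413 by edgeR). Unpaired, Aldoa was not called at 4 h in the main fit (adjusted p = 0.0602 by edgeR) but was in other settings. These were no filter on low counts (adjusted p = 0.0128 by edgeR) and DESeq2 (adjusted p = 0.0201). The others were the fit of all 12 libraries and the fit without vehicle replicate 1 (adjusted p = 0.00711 and 0.0377 by edgeR). At 24 h Hk1 was called lower, at -0.17 (SE 0.04), although that call ended in the fit of all 12 libraries (adjusted p = 0.115). Hk2, the hexokinase that insulin is known to raise in muscle, was not called at either time. The phosphofructokinase subunits, which form the committed step of glycolysis, went apart at 24 h. Pfkp had a log2 fold change of 0.46 and Pfkm one of 0.33, both called higher, and Pfkl was called lower at -0.24. Without the scaling of TMM the call of Pfkm ended (adjusted p = 0.161), and in the fit of all 12 libraries that of Pfkl (adjusted p = 0.0927). The spans of Pfkm and Pfkp overlap opposite-strand genes, Senp1 and Pitrm1, that held more counts than they did, and whether the counting used strand is not given in the sources used here.

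Aldoc, a minor aldolase best known from brain, was barely present. Its raw counts were 14, 23 and 32 in the vehicle libraries and 3, 7 and 1 in the treated libraries at 24 h. The groups did not overlap, and the log2 fold change was -2.27 (SE 0.59, adjusted p = 0.00176 by edgeR). It passed the filter on low counts through the vehicle group, where it was higher. Tpi1, which interconverts the triose phosphates, was called lower at -0.38 (SE 0.04).

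In the steps from triose phosphate to lactate, 3 of 8 genes were called higher at 24 h and 3 lower. Pgk1, the phosphoglycerate kinase that makes ATP (ENSMUSG00000062070, chrX:105230706-105247305 on the plus strand of GRCm39), measured 465, 478 and 446 CPM in vehicle and 799.6, 822 and 869.8 CPM in treated libraries at 24 h. Its treated libraries all lay above the vehicle libraries, with a log2 fold change of 0.84 (SE 0.05, adjusted p = 3.82e-12 by edgeR). At 4 h the levels of Pgk1 were 344, 399 and 385 CPM in vehicle and 429, 417 and 422 CPM in treated libraries, a log2 fold change of 0.17 that was not called.

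Ldha, the muscle-type lactate dehydrogenase subunit (ENSMUSG00000063229, chr7:46490899-46505051 on the plus strand of GRCm39), moved the other way, and is described because it shares the textbook HIF regulation of Pgk1. It was chosen after its values were seen. Ldha measured 851, 889 and 832 CPM in vehicle and 481, 497 and 499.6 CPM in treated libraries at 24 h, with no overlap. It was called lower at -0.81 (SE 0.04, adjusted p = 2.97e-12 by edgeR). Ldhb, the heart-type subunit, was called lower at -0.29 with an adjusted p of 0.0484 by edgeR, and 7 of the other settings tried ended that call, among them leaving out vehicle replicate 3 (adjusted p = 0.219) or treated replicates 1 or 2 (adjusted p = 0.116 and 0.107).

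The promoter windows of Pgk1 and Ldha, from 250 bases before to 50 after the annotated start, are shown 5′ to 3′ on the gene's strand. Both windows hold the HIF core ACGTG, and the genes changed in opposite directions at 24 h. The part of HIFs in either change was not tested. They come from RefSeq on GRCm38.p6, another build than that of the counts, and lie at chrX:106186850-106187149 on the plus strand for Pgk1 and at chr7:46845554-46845853 on the plus strand for Ldha. Capitals mark ACGTG, or its reverse complement CACGT, and the E-box CACGTG that contains both.
Pgk1: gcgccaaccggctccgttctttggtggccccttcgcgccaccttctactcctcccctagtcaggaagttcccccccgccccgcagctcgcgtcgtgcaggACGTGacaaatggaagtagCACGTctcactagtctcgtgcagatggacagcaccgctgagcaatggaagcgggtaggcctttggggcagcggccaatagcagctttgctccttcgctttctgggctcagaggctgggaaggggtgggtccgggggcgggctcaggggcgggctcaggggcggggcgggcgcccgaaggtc
Ldha: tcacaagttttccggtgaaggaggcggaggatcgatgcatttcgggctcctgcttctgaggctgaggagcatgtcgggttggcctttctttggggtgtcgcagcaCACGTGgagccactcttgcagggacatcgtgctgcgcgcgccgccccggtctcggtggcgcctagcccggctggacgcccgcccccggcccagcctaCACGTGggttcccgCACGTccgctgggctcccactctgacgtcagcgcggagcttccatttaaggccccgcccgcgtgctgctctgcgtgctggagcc

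The core ACGTG, searched on both strands, stood in 17 of the 37 windows (45.9%) against 19.7% of 27025 promoter windows of the same length. The windows of the set also had a higher GC content, with a median of 61.0% against 52.7%. The E-box CACGTG was in 4 of the 37 windows (10.8%) against 7.24% of all. The antioxidant response core TGACNNNGC, which NRF2 with small MAF proteins is known to bind, was in 2 of 37 (5.41%) against 12.5%, and the ATF4 and CEBP composite core TGATGNAA in 0 of 37 against 4.06%. Of the 17 genes with ACGTG, 4 were called higher at 24 h, 8 lower and 5 not called, and of the 20 without it 8, 10 and 2. A match describes the letters of the window and is not a measured site. For 13 of the genes RefSeq lists more than 1 window, and the first was used.

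**Figure D2:**
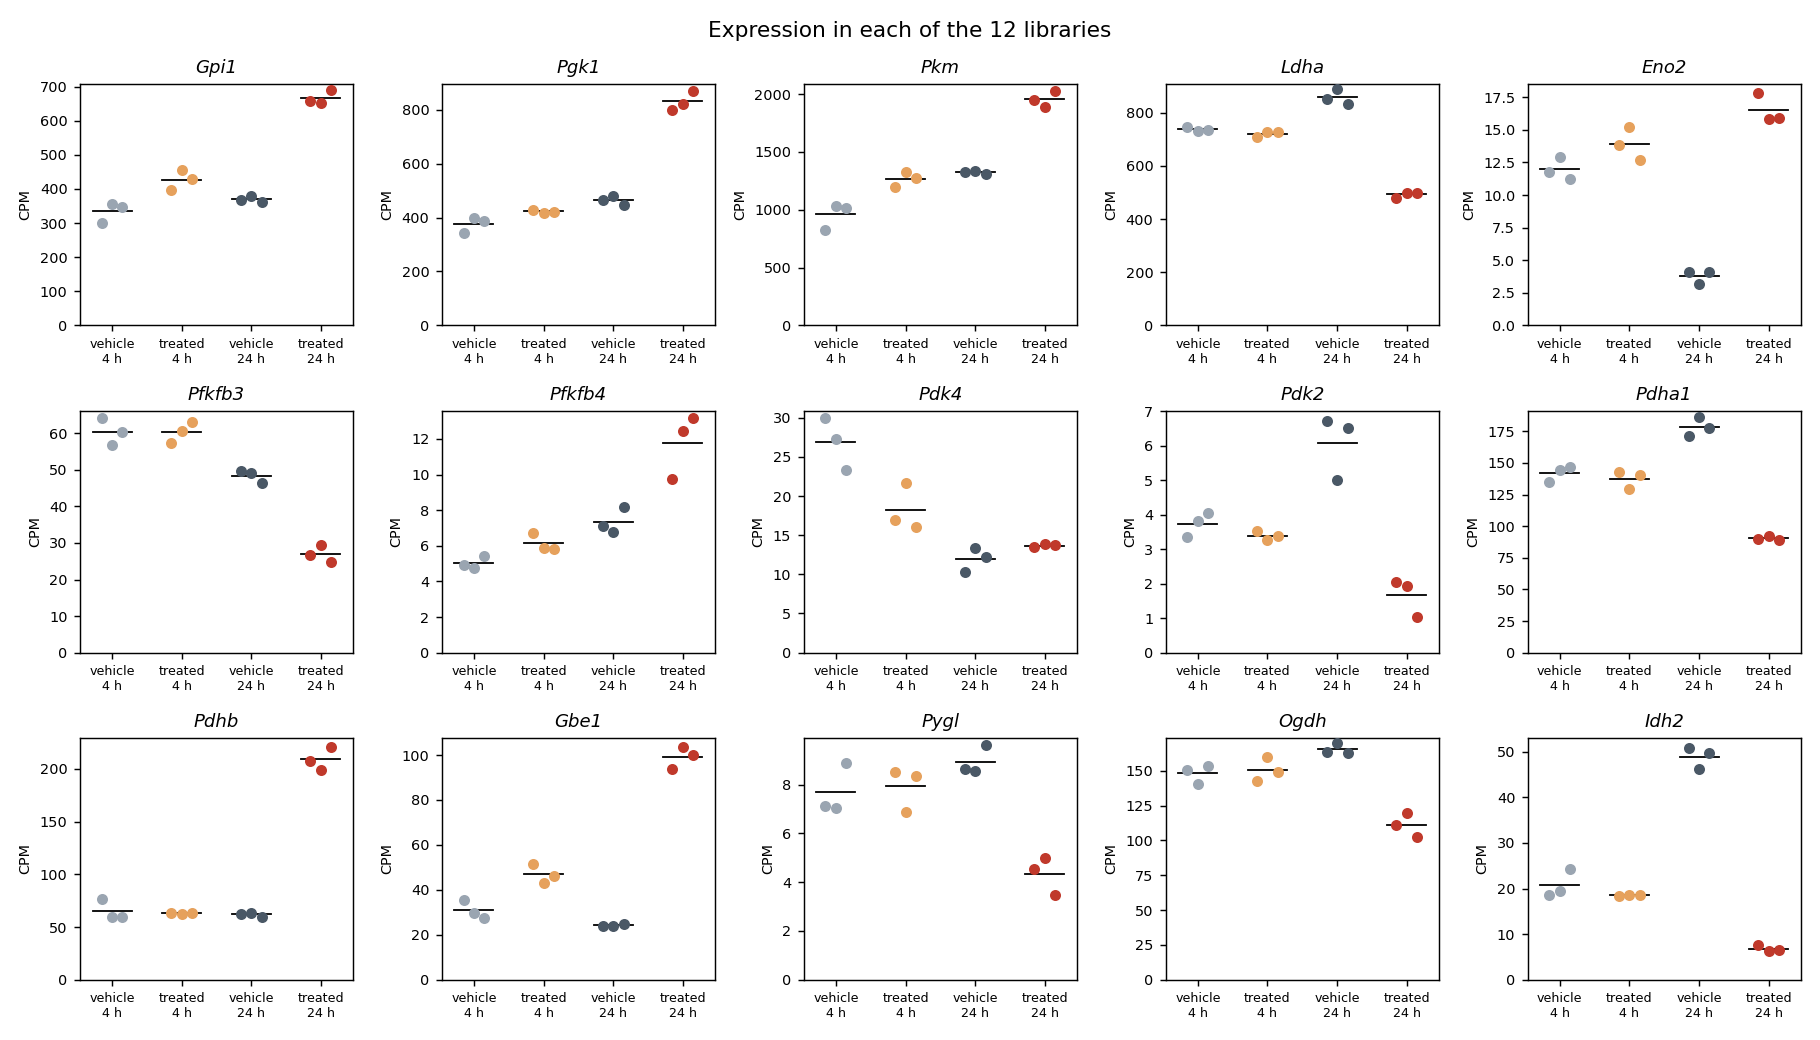
CPM after TMM scaling in each of the 12 libraries (points), with a bar at each group mean of 3 libraries, for 15 genes of the set on axes that start at 0. At 24 h the treated libraries of Gpi1, Pgk1, Eno2, Pdhb and Gbe1 lie above the vehicle libraries, and those of Ldha, Pdha1, Pdk2, Pygl and Idh2 below.

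Eno2, the neuron-type enolase (ENSMUSG00000004267, chr6:124737016-124746636 on the minus strand of GRCm39), had the largest rise among the 37 genes at 24 h. It measured 4.12, 3.17 and 4.06 CPM in vehicle and 17.8, 15.9 and 15.9 CPM in treated libraries, a log2 fold change of 2.11 (SE 0.13, adjusted p = 1.5e-11 by edgeR). At 4 h its levels were 11.8, 12.9 and 11.3 CPM in vehicle and 13.8, 15.2 and 12.7 CPM in treated libraries. The vehicle level at 24 h was 3.15-fold lower than at 4 h (log2 -1.66, adjusted p = 7.4e-09 by edgeR), and the treated libraries of 24 h lay above the vehicle libraries of both times. Eno1, the common enolase, was called lower at -0.40 (SE 0.05). Eno2 made up 0.357 ± 0.0651% of the summed enolase FPKM (the authors' fragment level scaled for gene length and depth) in vehicle and 2.01 ± 0.219% in treated cells at 24 h (mean ± SD, n = 3), so Eno1 remained nearly all of it.

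Pkm, pyruvate kinase, was called higher at both times (ENSMUSG00000032294, chr9:59563651-59586658 on the plus strand of GRCm39). Its levels were 829, 1035 and 1017 CPM in vehicle and 1199, 1325 and 1272 CPM in treated libraries at 4 h, with no overlap. At 24 h they were 1326, 1337 and 1307 CPM in vehicle and 1945, 1887 and 2030.3 CPM in treated libraries. The log2 fold change was 0.40 (SE 0.10, adjusted p = 0.0298 by edgeR) at 4 h and 0.56 (SE 0.04, adjusted p = 9.52e-10 by edgeR) at 24 h. Leaving out any of the treated libraries ended the 4 h call of Pkm (adjusted p = 0.0611, 0.133 and 0.131). Pgam1, phosphoglycerate mutase, showed no called change at either time, with a log2 fold change of 0.00 (SE 0.05) at 24 h.

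Gapdh, the glyceraldehyde phosphate dehydrogenase often used as a reference gene, gave no usable value. Its raw counts were 218, 178 and 1414 in vehicle and 2266, 2624 and 276 in treated libraries at 4 h, and 283, 4254 and 1799 in vehicle and 379, 3001 and 285 in treated libraries at 24 h. Within each group the highest library exceeded the lowest by 7.89 to 18.4 times in CPM, where the widest such ratio of another gene of the set with a mean of at least 1 CPM was 2.02, for Pdk2 in treated cells at 24 h. The log2 fold change at 24 h was -0.62 with an SE of 1.37. Copies of Gapdh are many in the mouse genome. Only 4 genes were looked up, by symbol, namely pseudogenes of Gapdh and the related gene Gapdhs, and they held 5 to 19 counts per library in sum. The span of Gapdh also overlaps the opposite-strand gene Iffo1, which held 60.9% as many counts, and whether the counting used strand is not given. How reads that fit several places were counted is likewise not given in the sources used here, and the part of either in the Gapdh counts was not tested. Copies of Ldha, Ldhb, Pgk1, Tpi1, Pgam1 and Gpi1 that were looked up by symbol held at most 1.78% of the counts of their parent gene.

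**Figure D3:**
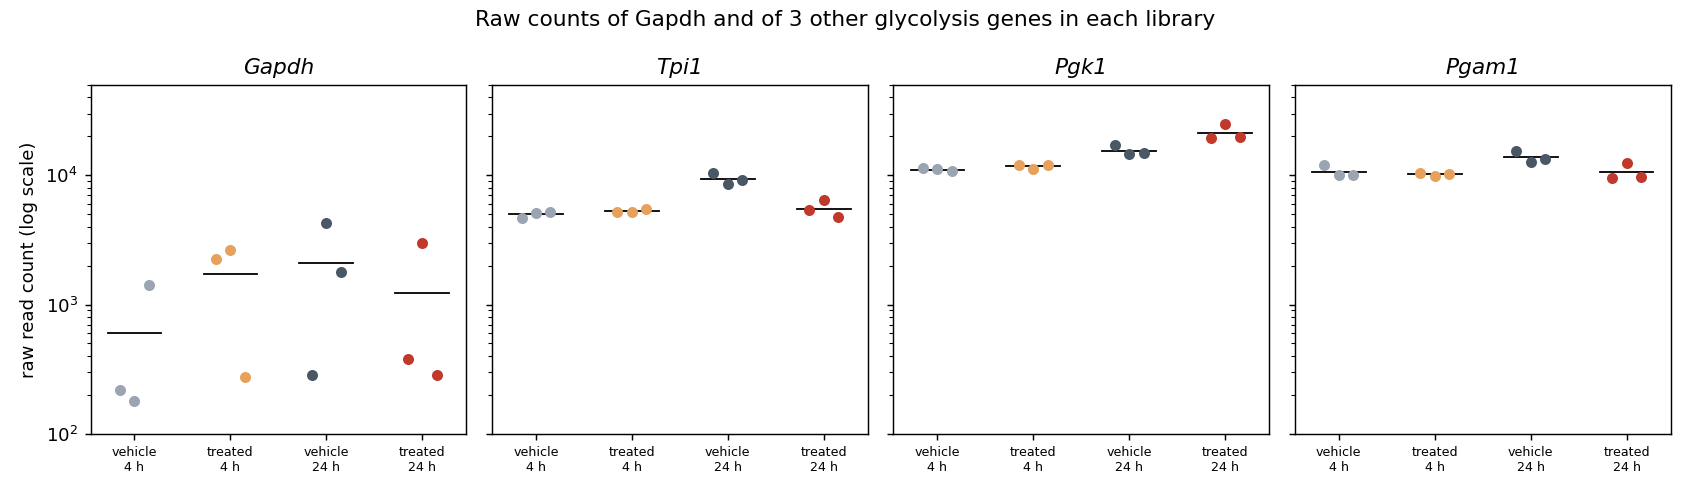
Raw read count per library (points, log axis) for Gapdh, Tpi1, Pgk1 and Pgam1 in the 4 groups, with a bar at each group mean of 3 libraries. Gapdh libraries of the same group lie far apart, from 178 to 4254 over all 12, whereas the other genes stay close together within a group.

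The PFKFB enzymes make and remove the activator of phosphofructokinase. At 4 h the log2 fold changes of the 3 members lay between -0.19 and 0.29 and were not called. Pfkfb3, whose kinase activity is known to dominate (ENSMUSG00000026773, chr2:11476244-11558888 on the minus strand of GRCm39), fell at 24 h, with 49.6, 49.3 and 46.3 CPM in vehicle and 26.8, 29.5 and 24.8 CPM in treated libraries and a log2 fold change of -0.84 (SE 0.07, adjusted p = 2.17e-09 by edgeR). Pfkfb4 rose, with 7.11, 6.79 and 8.19 CPM in vehicle and 9.77, 12.4 and 13.2 CPM in treated libraries and a log2 fold change of 0.67 (SE 0.13, adjusted p = 0.000121 by edgeR). In neither gene did the groups overlap. Pfkfb2 was called higher at 0.40 (SE 0.13), a call that ended under library totals (adjusted p = 0.158), and its span overlaps the opposite-strand gene Yod1, which held more counts. By FPKM, Pfkfb3 made up 72.3 ± 2.05% of the family in vehicle and 49.4 ± 2.66% in treated cells at 24 h, and Pfkfb4 17.1 ± 1.84% and 33.4 ± 4.60%. The shares of vehicle and treated libraries did not overlap, which gives an exact two-sided permutation p of 0.1, the smallest that 3 against 3 libraries can give.

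**Figure D4:**
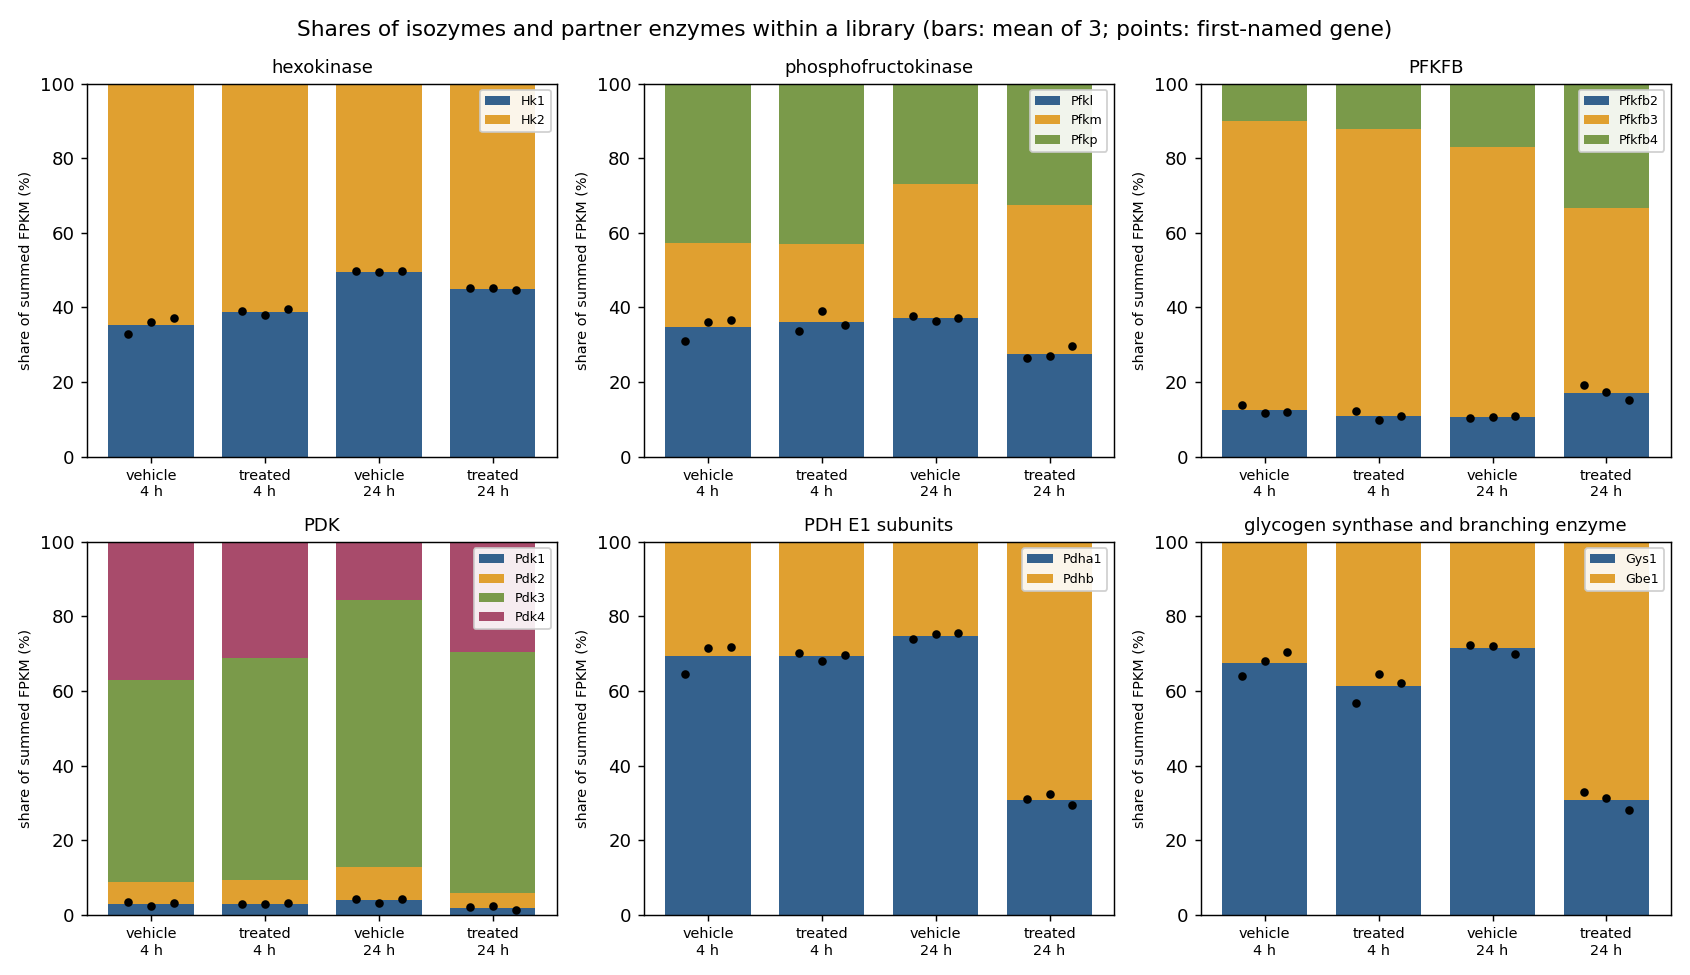
Share in percent of the summed FPKM of a family or pair taken by each gene in the 4 groups, as stacked means of 3 libraries, with points for the single libraries of the first-named gene (PDH E1 subunits stands for Pdha1 and Pdhb). At 24 h Pfkfb3 goes from 72.3% in vehicle to 49.4% in treated cells, and Pdha1 from 74.8% to 30.9% of the summed FPKM of Pdha1 and Pdhb.

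Of the 4 PDKs, 3 fell at 24 h and 1 was not called, beside 38.0% of all genes called lower. Pdk2 measured 6.73, 5.01 and 6.53 CPM in vehicle and 2.06, 1.92 and 1.02 CPM in treated libraries, a log2 fold change of -1.86 (SE 0.22, adjusted p = 4.29e-07 by edgeR). Pdk1 measured 6.71, 5.67 and 7.43 CPM in vehicle and 2.10, 2.52 and 1.37 CPM in treated libraries, a log2 fold change of -1.71 (SE 0.20, adjusted p = 2.9e-07 by edgeR). In both genes all treated libraries lay below all vehicle libraries. Pdk3, the most abundant of the family per length at 24 h, fell by 0.87 on the log2 scale (SE 0.07).

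Pdk4, which fasting and fatty acids are known to induce, was called lower at 4 h. Its levels were 29.9, 27.4 and 23.3 CPM in vehicle and 17.0, 21.6 and 16.0 CPM in treated libraries at 4 h, without overlap, at a log2 fold change of -0.56 (SE 0.14, adjusted p = 0.0304 by edgeR). That call ended without vehicle replicate 2 or treated replicates 1 or 3 (adjusted p = 0.0679, 0.115 and 0.163). At 24 h Pdk4 was not called, at 0.19 (SE 0.11), with 10.3, 13.4 and 12.2 CPM in vehicle and 13.5, 13.9 and 13.7 CPM in treated libraries, although it was called higher without vehicle replicate 2 (0.27, adjusted p = 0.0470). The difference between the responses at the 2 times was 0.76 (SE 0.18, adjusted p = 0.00168 by edgeR). Its vehicle level was 2.25-fold lower at 24 h than at 4 h. Pdk4 made up 15.7 ± 1.08% of the summed PDK FPKM in vehicle and 29.5 ± 0.536% in treated cells at 24 h.

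The alpha and beta subunits of pyruvate dehydrogenase, which work in a complex at equal numbers, changed in opposite directions at 24 h. Pdhb, the beta subunit (ENSMUSG00000021748, chr14:14296748-14303777 on the plus strand of GRCm39), measured 62.5, 63.7 and 59.8 CPM in vehicle and 208, 199 and 221 CPM in treated libraries, and was 3.36-fold higher (log2 1.75, SE 0.05, adjusted p = 2.61e-16 by edgeR). Pdha1, the alpha subunit (ENSMUSG00000031299, chrX:158905205-158921409 on the minus strand of GRCm39), measured 171, 186 and 178 CPM in vehicle and 89.9, 91.9 and 89.3 CPM in treated libraries, and was 1.98-fold lower (log2 -0.99, SE 0.05, adjusted p = 3.39e-13 by edgeR). In both genes the groups were far apart beside the spread within a group. At 4 h Pdhb measured 76.5, 59.5 and 59.3 CPM in vehicle and 63.2, 62.4 and 63.2 CPM in treated libraries and Pdha1 135, 144 and 146 CPM in vehicle and 143, 129 and 141 CPM in treated libraries, and neither was called.

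Per length, Pdha1 made up 74.8 ± 0.812% of the FPKM of both subunits in vehicle and 30.9 ± 1.44% in treated cells at 24 h (mean ± SD, n = 3), so that the order of the subunits turned over. The groups did not overlap, and the exact two-sided permutation p of 0.1 is the smallest possible here. At 4 h the share was 69.3 ± 4.08% and 69.3 ± 1.01%. This pair was taken up after its values were seen. Dlat, the acetyltransferase core of the complex, was called higher at 0.20 (SE 0.05), a value that was 0.01 under library totals.

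The windows of this opposed pair are shown likewise, at chrX:160138381-160138680 on the minus strand for Pdha1 and chr14:8172943-8173242 on the minus strand for Pdhb, whose annotated strand differs between the builds. Capitals mark CACGT, the reverse complement of ACGTG, and GCTGCGTCA, a match to TGACNNNGC on the other strand, both in Pdhb. None of the motifs searched was in the window of Pdha1.
Pdha1: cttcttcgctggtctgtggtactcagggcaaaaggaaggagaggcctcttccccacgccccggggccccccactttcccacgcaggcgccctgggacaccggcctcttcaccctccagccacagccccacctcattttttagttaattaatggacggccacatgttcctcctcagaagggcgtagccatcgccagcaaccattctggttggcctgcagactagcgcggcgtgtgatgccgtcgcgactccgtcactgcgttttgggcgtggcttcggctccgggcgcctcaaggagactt
Pdhb: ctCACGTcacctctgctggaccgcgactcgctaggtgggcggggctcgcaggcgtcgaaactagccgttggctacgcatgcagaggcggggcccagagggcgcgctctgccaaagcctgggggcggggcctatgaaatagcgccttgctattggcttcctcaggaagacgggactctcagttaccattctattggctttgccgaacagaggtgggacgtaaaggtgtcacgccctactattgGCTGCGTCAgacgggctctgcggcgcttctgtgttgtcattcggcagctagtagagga

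Among 5 glycogen enzymes, branching enzyme rose while synthase and both phosphorylases fell at 24 h. Gbe1, the branching enzyme (ENSMUSG00000022707, chr16:70110837-70366604 on the plus strand of GRCm39) and described as an NRF2-dependent gene in mouse skeletal muscle, measured 35.6, 29.7 and 27.6 CPM in vehicle and 51.5, 43.1 and 46.2 CPM in treated libraries at 4 h. At 24 h it measured 23.8, 24.1 and 24.8 CPM in vehicle and 93.8, 104 and 100.1 CPM in treated libraries. No treated library overlapped the vehicle libraries of its time. The log2 fold change of Gbe1 was 0.60 (SE 0.11, adjusted p = 0.00879 by edgeR) at 4 h and 2.03 (SE 0.06, adjusted p = 2.42e-16 by edgeR) at 24 h, where it was 4.08-fold higher. The 4 h call ended without treated replicate 1 (adjusted p = 0.0546).

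Gys1, the muscle-type glycogen synthase, fell by 0.47 on the log2 scale at 24 h (SE 0.07). Its span overlaps the opposite-strand gene Ruvbl2, which held more counts. Pygl, the liver-type phosphorylase, measured 8.62, 8.54 and 9.60 CPM in vehicle and 4.54, 4.98 and 3.46 CPM in treated libraries at 24 h, without overlap, a log2 fold change of -1.04 (SE 0.15, adjusted p = 3.64e-06 by edgeR). Pygb, the brain-type phosphorylase and the more abundant of the pair per length, was called lower at -0.93 (SE 0.06). Of the summed FPKM of Gys1 and Gbe1, a pair also taken up after its values were seen, Gys1 made up 71.5 ± 1.30% in vehicle and 30.7 ± 2.49% in treated cells at 24 h. Ugp2, which makes the UDP-glucose that glycogen synthase uses, was not called at either time.

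In the TCA cycle, 3 of 5 genes fell at 24 h and 2 were not called. Over all genes 74.7% were called at 24 h, 38.0% lower. Idh2, the mitochondrial isocitrate dehydrogenase that yields NADPH (ENSMUSG00000030541, chr7:79744594-79765140 on the minus strand of GRCm39), had the largest fall of the set. It measured 50.8, 46.2 and 49.8 CPM in vehicle and 7.63, 6.40 and 6.51 CPM in treated libraries at 24 h, and was 7.19-fold lower (log2 -2.85, SE 0.09, adjusted p = 5.16e-16 by edgeR). At 4 h it measured 18.5, 19.4 and 24.3 CPM in vehicle and 18.3, 18.7 and 18.6 CPM in treated libraries and was not called. Its vehicle level was 2.36-fold higher at 24 h than at 4 h (log2 1.24, adjusted p = 1.64e-08 by edgeR), and the treated libraries at 24 h lay below those of every other group.

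Ogdh, a subunit of the oxoglutarate dehydrogenase complex, measured 163, 170.1 and 163 CPM in vehicle and 111, 119 and 102 CPM in treated libraries at 24 h, a log2 fold change of -0.58 (SE 0.05, adjusted p = 7.14e-09 by edgeR), without overlap. Mdh2, the mitochondrial malate dehydrogenase, was called lower at -0.27 (SE 0.05). Cs, citrate synthase, and Mdh1, the cytosolic malate dehydrogenase, were not called, at 0.02 (SE 0.05) and -0.08 (SE 0.05).

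Between the times, the treatment response differed for 25 of the 37 genes by the interaction test, being higher at 24 h for 9 and lower for 16. Over all 16341 genes tested, 53.8% were called, 26.7% higher and 27.1% lower. In the main fits, which were unpaired, the same 3 genes that were called higher at 4 h were called higher at 24 h, and no gene was called in opposite directions. With pairing Aldoa was called higher at both times, and Hk1 was called higher at 4 h and lower at 24 h. Hk1 measured 109.9, 143 and 147 CPM in vehicle and 146, 173 and 162 CPM in treated libraries at 4 h, and 144, 144 and 139 CPM in vehicle and 127, 126 and 129 CPM in treated libraries at 24 h. The groups overlapped at 4 h, whereas at 24 h all treated libraries lay below all vehicle libraries. For Pkm the 24 h response was not called as different from that at 4 h (log2 difference 0.16, SE 0.11, adjusted p = 0.21 by edgeR), while for Gbe1 it was (log2 difference 1.43, SE 0.13, adjusted p = 4.36e-08 by edgeR).

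Vehicle cells themselves differed between the times. Of the 37 genes, 20 were called higher and 7 lower in vehicle at 24 h against 4 h, where 54.3% of all genes were called, 27.4% higher and 27.0% lower. The median log2 difference of the 37 genes was 0.30 and that of all genes 0.01. Among those called higher were 5 of 9 genes of the first steps of glycolysis and 6 of 8 from triose phosphate to lactate. The TCA cycle genes Idh2, Mdh1 and Cs were also called higher. Called lower were Hk2, Pfkp, Eno2, Pfkfb2, Pfkfb3, Pdk4 and Gbe1. The call of Pfkfb2 ended without vehicle replicate 1 of 4 h (adjusted p = 0.0595), and that of Pfkp without vehicle replicate 2 or 3 of 4 h or without vehicle replicate 1 or 3 of 24 h (adjusted p = 0.0501 to 0.106). The macrophage and leukocyte markers summed to 98.8 to 107 CPM in vehicle at 4 h and 347 to 409 CPM at 24 h, and their part in these differences was not tested. This comparison and the 24 h response share the vehicle libraries of 24 h.

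Genes of the same pathways outside the set are given by counts from lists made with earlier results known, and genes are named only where the mean FPKM of the higher group was at least 1. The counts of all these lists stand beside 36.7% of all genes called higher and 38.0% lower at 24 h, and 3.45% and 3.71% at 4 h. Of 17 further glycolysis and glucose entry genes tested, 5 were called higher and 10 lower at 24 h. The glucose transporter gene Slc2a1 rose at both times (log2 0.70 at 4 h and 1.53 at 24 h), the lactate and pyruvate transporter gene Slc16a1 rose at 24 h (1.17), and the muscle enolase Eno3 fell (-1.52). Of 20 tested at 4 h, Slc2a1 was the only one called, and pairing by replicate number added 1 gene as lower.

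Of 8 gluconeogenesis and anaplerosis genes tested at 24 h, 2 were called higher and 4 lower. Pcx, pyruvate carboxylase, which makes oxaloacetate for the TCA cycle, was called higher at 4 h (log2 0.98) and at 24 h (1.67), and was the only one of 9 called at 4 h. Me1, the cytosolic malic enzyme, rose at 24 h (1.22), and Gpd1l (-1.63) and the mitochondrial malic enzyme Me2 (-0.77) fell.

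Of 10 further genes of pyruvate entry and of the regulation of pyruvate dehydrogenase, 5 were called higher and 4 lower at 24 h. Pdhx, a structural part of the complex, rose (log2 1.53), as did Pdp1 (0.88), the phosphatase that opposes the PDKs. Pdpr (-1.15), a regulator of that phosphatase, and Lipt2 (-1.84), which acts in lipoyl attachment, fell. Lipt2 (-0.80) and Lipt1 (-0.59) were called lower at 4 h, and both calls ended when any of 5 of the 6 libraries was left out, all but vehicle replicate 2.

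Of 19 further glycogen genes tested, 7 were called higher and 6 lower at 24 h. Among those called higher were Gaa, the lysosomal glucosidase (log2 1.04), and Pgm2 (0.83), and among those called lower Phkb (-0.60) and Stbd1 (-0.50), while 4 genes under that FPKM minimum fell further than these. Gaa was also called higher at 4 h (0.40), a call that ended when any of 4 libraries was left out, vehicle replicates 2 or 3 or treated replicates 2 or 3, with adjusted p of 0.0516 to 0.137. Of 18 further TCA cycle genes, 6 were called higher and 10 lower at 24 h. Got1 (1.48) and Idh3b (0.85) rose most, and Suclg2 (-1.16) and Fh1 (-0.63) fell most. At 4 h edgeR called 0 of the 18, and DESeq2 and limma also called 0. By edgeR 3 of the 18 had an unadjusted p under 0.05 at 4 h, beside 3588 of all 15336 genes tested.

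With libraries paired at 4 h, the further glycogen genes called higher were 4 instead of 2, the gluconeogenesis and anaplerosis genes 2 instead of 1, and 1 of the further TCA cycle genes was called lower. Pairing raised the calls over all 15336 genes as well, from 529 to 920 higher and from 569 to 1033 lower.

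Of 24 HIF pathway genes and hypoxia targets outside glycolysis, 11 were called higher and 8 lower at 24 h, beside 36.7% and 38.0% of all genes. Ndrg1 (log2 3.34) and Kdm3a (1.48), a histone demethylase, were among those called higher, and Epas1 (-1.50), which codes for a HIF alpha subunit, and Mxi1 (-0.83) among those called lower. At 4 h Adm, which codes for adrenomedullin, was the only one of 23 called (1.73, higher), and with pairing 2 were called higher and 1 lower. At 24 h Adm was called lower (-0.82), and its responses at the times differed by -2.54 on the log2 scale (adjusted p = 2.28e-07 by edgeR). The median log2 fold change at 24 h was -0.57 for the further glycolysis list, -0.64 for gluconeogenesis and anaplerosis, 0.16 for pyruvate entry, 0.05 for the further glycogen list, -0.14 for the further TCA cycle list and 0.06 for the HIF list, beside -0.02 for all genes.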

How the data were processed

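RNA-seq of 12 libraries in 4 groups of 3 was taken from 1 table per time. HISAT2 2.0.5, featureCounts 1.5.0-p3 and DESeq2 are named, without a role for each, with the build GRCm39, per the submitters' processing notes. Per the file headers, the authors deposited raw counts per gene and library, a signal that is the count divided by a size factor, FPKM, and the log2 ratio and p-value of their comparison. Genes whose counts sum to less than 2 at a time are not listed there. The columns of group means at 24 h, unlike those at 4 h, bear an extra prefix whose meaning no label gives.

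Raw counts were tested with edgeR 4.0.16 (limma 3.58.1, DESeq2 1.42.0 and R 4.3.3 for alternatives), with its default filter on low counts, TMM scaling and robust quasi-likelihood fits, and p-values were adjusted over all genes. The fits were tested on simulated data in which few genes changed, whereas at 24 h 74.7% of all genes were called. That test therefore does not check the fits or the scaling under a change as broad as at 24 h. The responses used the 6 libraries of their time, and the interaction and the vehicle comparison all 12, where a gene missing from 1 table entered as 0 counts. Log2 fold changes have the SE of the fit, and CPM are after TMM over 12 libraries. Depth was 25016754 to 34877090 counts per library. Same-numbered vehicle and treated libraries deviated together at 4 h (r = 0.190, 0.177 and 0.236 across genes, which are not independent replicates) but not at 24 h (0.0700, 0.0519 and -0.100). By a rule of r over 0.1 in every same-numbered pair the numbers would pair the libraries at 4 h, but no label names a pairing. The rule does not settle it, because differently numbered libraries also exceeded 0.1 at 24 h. These were vehicle replicate 2 with treated replicate 3 (r = 0.129) and vehicle replicate 3 with treated replicate 1 (r = 0.143). The main fits and those leaving out a library did not use pairing by replicate number, and paired values are given where they change a call.

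The members and lists were chosen with earlier results of these data known. Every member is accounted for. Values in every library are given for members called at 4 h and for the 2 largest called changes of each role group at 24 h, and Ldha and Gapdh were added after their values were seen. From each other list up to 2 rises and 2 falls at 24 h and 2 changes at 4 h are named, where the mean FPKM of the higher group is at least 1. Some genes that this rule selects are not reported here. Alternatives were RLE size factors, library totals, no filter, DESeq2, a replicate block, all 12 libraries in 1 fit, limma-trend on FPKM with pseudocounts of 1 and 0.1, shares of CPM, and leaving out each library.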

Additional observations from a re-analysis of the deposited data

Results flagged for a closer look

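For 25 of the 37 genes the response at 24 h differed from that at 4 h by edgeR's quasi-likelihood test of the interaction over 12 libraries (adjusted p under 0.05), and each value below is that difference on the log2 scale. The response was higher at 24 h for Eno2 (1.90), Pdhb (1.80), Gbe1 (1.43), Pdk4 (0.76), Pgk1 (0.67), Pfkfb2 (0.60), Gpi1 (0.50), Aldoa (0.43) and Pfkp (0.32). It was lower at 24 h for Idh2 (-2.68), Pdk2 (-1.72), Pdk1 (-1.33), Pygl (-1.08), Pdha1 (-0.94), Pygb (-0.84), Pfkfb3 (-0.83), Ldha (-0.77), Gys1 (-0.68), Pdk3 (-0.67), Ogdh (-0.60), Tpi1 (-0.53), Eno1 (-0.47), Hk1 (-0.43), Pfkl (-0.43) and Mdh2 (-0.35). The call of Pfkl ended under 11 of the other settings tried, and those of Pfkp and Pfkfb2 each under 2. The vehicle levels of many of these genes also moved between the times, and the part of that in each difference was not tested. With 3 libraries in a group, no library was tested as an outlier.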

How the results depend on the processing

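The response at 4 h depended on the settings more than that at 24 h. With a replicate block at 4 h, 920 genes were called higher and 1033 lower, and 5 of the 37 genes higher. A fit over all 12 libraries called 1059 genes higher and 1139 lower at 4 h. Limma-trend on log2(FPKM + 1) called 331 lower, and with a pseudocount of 0.1 it called 352 higher and 322 lower. With either pseudocount 1 of the 37 genes was called higher and 0 lower, against 3 and 1 by edgeR. The gene sets differed, because limma-trend tested only the 11382 genes with a mean FPKM of at least 1 and edgeR tested 15336. Genes of the set under that minimum, such as Pdk1, had no limma value at 4 h. Leaving out 1 library at 4 h gave 222 to 921 genes higher, 221 to 839 lower, 0 to 4 of the 37 genes higher and 0 to 1 lower, with the lowest counts of all genes without treated replicate 3 and the highest without vehicle replicate 1. Under library totals at 24 h, Ugp2 went to -0.14 (adjusted p = 0.0304) and Cs to -0.18 (adjusted p = 0.00245), as the median of all genes moved to -0.21. On shares of CPM in place of FPKM, the change of the Pfkp share at 24 h was 8.42 percentage points instead of 5.66 and that of Ldha -0.41 instead of -0.84.

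Over all alternatives and the 37 genes, 477 of 502 values at 4 h, 492 of 512 at 24 h, 608 of 629 of the difference between the responses and 616 of 629 of the vehicle comparison stayed on the same side of the threshold without a reversed call. The 4 h share is not a measure of stable calls, because 32 of the 36 genes tested were not called and had no call to lose. At 4 h 19 values lost a call, all of them of Gpi1, Pkm, Pdk4 or Gbe1, and at 24 h 13 values did. At 24 h the call of Hk2 as higher appeared with RLE size factors (adjusted p = 0.0357), and that of Mdh1 as lower without vehicle replicate 2 (adjusted p = 0.0400). At 24 h the replicate block ended the call of Ldhb (adjusted p = 0.0565) and no other among the 37 genes. The causes were not tested. At an adjusted p under 0.05 in the authors' deposited table, 4 of the 37 genes were called higher and 1 lower at 4 h, and 12 higher and 17 lower at 24 h. The share of all genes called in that table was not taken. The DESeq2 fit made here called 664 of 26240 genes higher and 744 lower at 4 h. At 24 h it called 5709 of 27020 genes higher and 5647 lower. Depth limits Aldoc most, which had 1 to 32 counts per library at 24 h.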
